A study of Mus musculus with 64 samples.

Results

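Immediate early genes are the genes that cells switch on fastest after a stimulus, with no need for newly made protein. 10 of them, Fos, Fosb, Jun, Junb, Jund, Egr1, Egr2, Atf3, Ier2 and Nr4a1, were followed across 64 libraries of total RNA from isolated mouse microglia, the resident macrophages of the brain. They were picked by symbol, and all 10 were found among the 49671 genes of the deposited count table.

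Hippocampus and frontal cortex were the sources of the cells, from young adult male mice labelled C57BL/6, for which the study's methods name the substrain C57BL6/N, kept on a reversed light cycle. The microglia were obtained by dissociating the tissue mechanically in the cold and sorting on magnetic beads against CD11b, a surface protein that other myeloid cells also carry. Region, phase (Day or Night) and condition (Soci, Cogn, Ctr0 or Ctr1) together made 16 groups of 4 libraries, with 16 libraries per phase in a region. The labels state no genotype, do not explain the condition names and do not say which part of the light cycle Day stands for. The paper states that microglia were taken in the light and in the dark phase, with 16 replicates per time point. Its heading calls these day and night. The labels also do not say whether the libraries of a group came from separate animals, so the p-values measure only the spread between these libraries.

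The gene counts of a library summed to between 10.2 M and 84.5 M, with a median of 15.9 M. Markers of microglia, 10 genes in all, were present in every group and summed to between 12149 and 25376 CPM (counts put on 1 scale across libraries by TMM). Markers of neurons were not absent, and 10 of them summed to between 682.5 and 4318 CPM. No defining marker of microglia or neurons was at or under 3 counts in the median library of a phase and region, whereas the neutrophil marker Ly6g was so in all 4. Bulk RNA cannot tell fewer cells of a type from less RNA per cell.

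Fos, Fosb, Jun, Junb and Jund encode subunits of AP-1, a transcription factor made of protein pairs in which a Fos protein needs a Jun partner and Jun proteins can also pair with each other, and Atf3 encodes a stress-induced factor of the related ATF family. Egr1 and Egr2 encode zinc finger transcription factors that bind GC-rich sites, and Nr4a1 encodes an orphan nuclear receptor. Ier2 encodes a small nuclear protein whose transcript rises in the same fast response. In the brain these transcripts are widely used as marks of neuronal activity, and in microglia they are known to rise when tissue is taken apart, above all during digestion with warm enzymes.

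The genes were compact. Their spans in the GENCODE M21 annotation of GRCm38 ran from 1522 bases for Ier2 to 47744 bases for Atf3, with a median of 4698.5 bases against 17577.5 bases over 21734 protein-coding genes. Jun (chr4:95049034-95052222, minus strand), Jund (chr8:70698949-70700616, plus strand) and Ier2 (chr8:84661331-84662852, minus strand) consisted of 1 exon block and held no intron, as did 6.48% of protein-coding genes. Jun, Junb, Jund and Atf3 shared bases with a gene on the other strand, respectively Junos, Prdx2, Gm11175 and Gm24748. The counting kept strands apart, because genes nested in a highly expressed host had a median of 1.60 CPM per kilobase when they lay on the strand of the host and 0.0048 when they lay on the opposite strand.

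Promoter windows of 300 bases, from 250 before to 50 after the transcription start in RefSeq (GRCm38.p6), were found for 8 of the 10 genes, but not for Egr1 and Ier2. The 5 printed here belong to genes whose levels or day-night differences carry the results below. They are Jun (chr4:95052173-95052472, minus strand), Junb (chr8:84978699-84978998, minus strand), Fos (chr12:85473640-85473939, plus strand), Egr2 (chr10:67537619-67537918, plus strand, 1 of its 5 windows) and Nr4a1 (chr15:101266596-101266895, plus strand, inside the annotated span of the gene). Capitals mark the letters searched for on either strand: TGACG, the core of the cyclic AMP response element, its full form TGACGTCA, the AP-1 site TGANTCA, the EGR site GCGNGGGCG, TATAA and the CArG box bound by serum response factor.
Jun: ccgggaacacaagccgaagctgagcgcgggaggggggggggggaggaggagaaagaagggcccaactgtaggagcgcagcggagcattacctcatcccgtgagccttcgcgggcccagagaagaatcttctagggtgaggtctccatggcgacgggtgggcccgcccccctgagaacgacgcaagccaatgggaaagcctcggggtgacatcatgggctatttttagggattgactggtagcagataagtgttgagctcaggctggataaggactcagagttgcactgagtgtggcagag
Junb: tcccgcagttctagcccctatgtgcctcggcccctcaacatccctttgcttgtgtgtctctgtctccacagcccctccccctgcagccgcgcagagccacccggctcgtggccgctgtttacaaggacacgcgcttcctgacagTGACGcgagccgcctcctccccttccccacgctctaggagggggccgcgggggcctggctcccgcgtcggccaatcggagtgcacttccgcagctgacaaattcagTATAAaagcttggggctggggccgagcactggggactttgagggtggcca
Fos: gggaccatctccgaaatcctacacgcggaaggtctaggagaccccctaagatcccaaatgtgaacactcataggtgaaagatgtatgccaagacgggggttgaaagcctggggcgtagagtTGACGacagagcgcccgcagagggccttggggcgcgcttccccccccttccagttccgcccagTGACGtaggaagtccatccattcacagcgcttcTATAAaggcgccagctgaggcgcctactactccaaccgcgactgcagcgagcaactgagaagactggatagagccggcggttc
Egr2: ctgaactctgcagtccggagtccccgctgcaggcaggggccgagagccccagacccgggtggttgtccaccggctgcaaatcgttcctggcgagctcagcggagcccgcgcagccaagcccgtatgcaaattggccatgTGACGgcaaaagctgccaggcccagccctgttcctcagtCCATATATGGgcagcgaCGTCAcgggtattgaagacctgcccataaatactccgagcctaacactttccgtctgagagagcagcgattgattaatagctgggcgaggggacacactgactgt
Nr4a1: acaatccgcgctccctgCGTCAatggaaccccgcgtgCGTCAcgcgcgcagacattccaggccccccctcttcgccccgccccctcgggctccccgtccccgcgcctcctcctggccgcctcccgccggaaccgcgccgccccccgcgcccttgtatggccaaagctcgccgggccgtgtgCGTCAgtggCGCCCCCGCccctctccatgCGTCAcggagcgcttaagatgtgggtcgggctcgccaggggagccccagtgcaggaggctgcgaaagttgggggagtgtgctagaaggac

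TGACG stood in a window of 6 of the 8 genes, Atf3, Egr2, Fos, Fosb, Junb and Nr4a1, and in 20.8% of all 32851 windows. The Nr4a1 window held it 4 times and the Fos window 2 times. GCGNGGGCG was found for Fosb and Nr4a1 (5.55% of all windows), TATAA for Egr2, Fos and Junb (24.9%) and a CArG box for Egr2 (1.63%). The full TGACGTCA, which contains TGACG, and TGANTCA were found in no window of these genes, and in 1.79% and 7.81% of all windows. The windows of Jun and Jund held none of the 6 motifs, and that of Jund (chr8:70697489-70697788, plus strand) lies upstream of the annotated start of the counted gene and does not cover it. These are matches of letters, and no binding was measured.

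The 3 Jun genes dominated the set. Per kilobase of exon, Jund had the highest mean level over the 64 libraries, 24.7 CPM per kilobase, and stood above 95.9% of the genes tested. Junb followed with 18.2 and Jun with 14.0 CPM per kilobase. Their mean levels not divided by length were alike, 41.2 ± 6.74 CPM for Jund, 41.8 ± 6.84 CPM for Junb and 44.7 ± 7.36 CPM for Jun (SD, n = 64). These 3 genes made up 83.4% of the summed CPM of the 10 on average, and between 70.1% and 87.4% in single libraries.

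A middle tier was formed by Ier2 with 5.78 ± 1.18 CPM (SD, n = 64), or 3.80 per kilobase, Atf3 with 5.17 ± 1.03 CPM, or 2.40 per kilobase, and Nr4a1 with 7.23 ± 3.44 CPM, or 2.06 per kilobase. Egr1 was lower, with 4.29 ± 1.82 CPM and 0.956 per kilobase. Fos and Fosb were scarce at the level of RNA. Fos had 1.10 ± 0.521 CPM and 0.466 per kilobase, which put Jund 53.0 times and Jun 30.1 times above it per kilobase. Egr2 had 1.45 ± 1.91 CPM and 0.428 per kilobase, and Fosb came last with 0.561 ± 0.348 CPM and 0.0899 per kilobase, above 0.674% of the genes tested.

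Depth set how precisely the scarce genes were measured. Fos rested on 6 to 106 counts per library, Egr2 on 7 to 198 and Fosb on 1 to 61, and in 9 libraries Fosb was at or under 3 counts, where 3 counts correspond to between 0.0355 and 0.295 CPM over the totals of all 64 libraries. Counts of this size carry counting error in addition to the spread between libraries. The spread over all libraries was 16.4% to 16.5% of the mean for the Jun genes and at most 20.4% for Atf3 and Ier2. It was 42.5% to 47.6% for Egr1, Fos and Nr4a1, 62.1% for Fosb and 131% for Egr2. The Egr2 value came from 1 library, cortical Night Soci replicate 3, without which the mean was 1.22 ± 0.422 CPM (SD, n = 63) and the spread 34.5% of it.

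**Figure D1:**
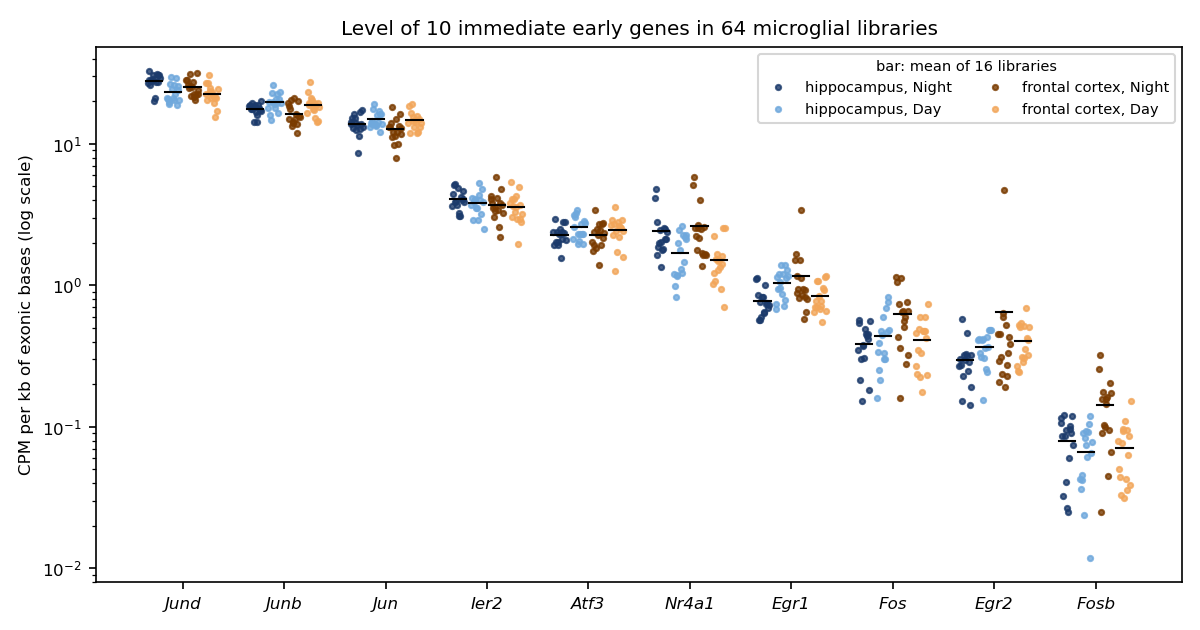
Level of each of the 10 genes in the 64 libraries, in CPM per kilobase of exon on a log axis, with 1 point per library and a bar at the mean of the 16 libraries of each region and phase. Jund, Junb and Jun lie between 14.0 and 24.7 on average over all libraries, and Fosb lies lowest at 0.0899.

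The 16 groups were ordered by mean level for each gene. The CPM ranges of all 15 pairs of neighbours in that order overlapped for each of the 10 genes, which sorting by the mean favours. The highest and the lowest group did not overlap for 7 of the 10, Fos, Fosb, Jun, Junb, Jund, Ier2 and Nr4a1, and these ends were picked out of 16 groups. The share of all genes was counted neither for these ends nor for the neighbours. The ratio of the highest to the lowest group mean was small for the Jun genes. Jun ran from 36.3 ± 4.00 CPM in cortical Night Ctr1 to 52.4 ± 6.84 in hippocampal Day Cogn (SD, n = 4), a ratio of 1.44. Junb had the same groups at its ends, with 34.1 ± 5.46 and 50.0 ± 6.48 CPM. Jund ran from 34.1 ± 5.22 CPM in cortical Day Ctr0 to 48.8 ± 3.61 in hippocampal Night Ctr1.

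Fos, Fosb, Egr1, Egr2 and Nr4a1 spread further over the groups, and each had its highest mean in a cortical night group. For Egr1 and Egr2 that place rested on 1 library. Fos had its highest mean in cortical Night Ctr1, with 1.75, 1.52, 1.41 and 1.56 CPM in its libraries, and its lowest in cortical Day Ctr0, with 0.555, 0.532, 1.12 and 0.544 CPM. The values of these Fos groups did not overlap. Fosb was highest in cortical Night Cogn with 2.00, 1.09, 0.899 and 1.27 CPM. Nr4a1 was highest in the same group with 20.5, 8.87, 8.83 and 9.06 CPM, of which 1 library stood far above the other 3.

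Egr1 and Egr2 were both highest in cortical Night Soci, and 1 library carried both values. Egr1 was at 6.80, 4.23, 15.4 and 3.70 CPM there, in the order of the replicate numbers. Egr2 was at 1.55, 1.06, 16.1 and 0.924 CPM, and the same replicate 3 held 198 counts where the others held 17 to 30. The next highest group means were those of day groups, 5.49 CPM in hippocampal Day Ctr1 for Egr1 and 1.71 CPM in cortical Day Ctr1 for Egr2. Because cortical Night Soci replicate 3 decides several values, the day-night and region calls that rest on it and the r of Egr1 and Egr2 are given with and without it. Other values are given with it alone, among them the group orders, the spread of Egr1, the condition contrasts and the median cortical change.

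**Figure D2:**
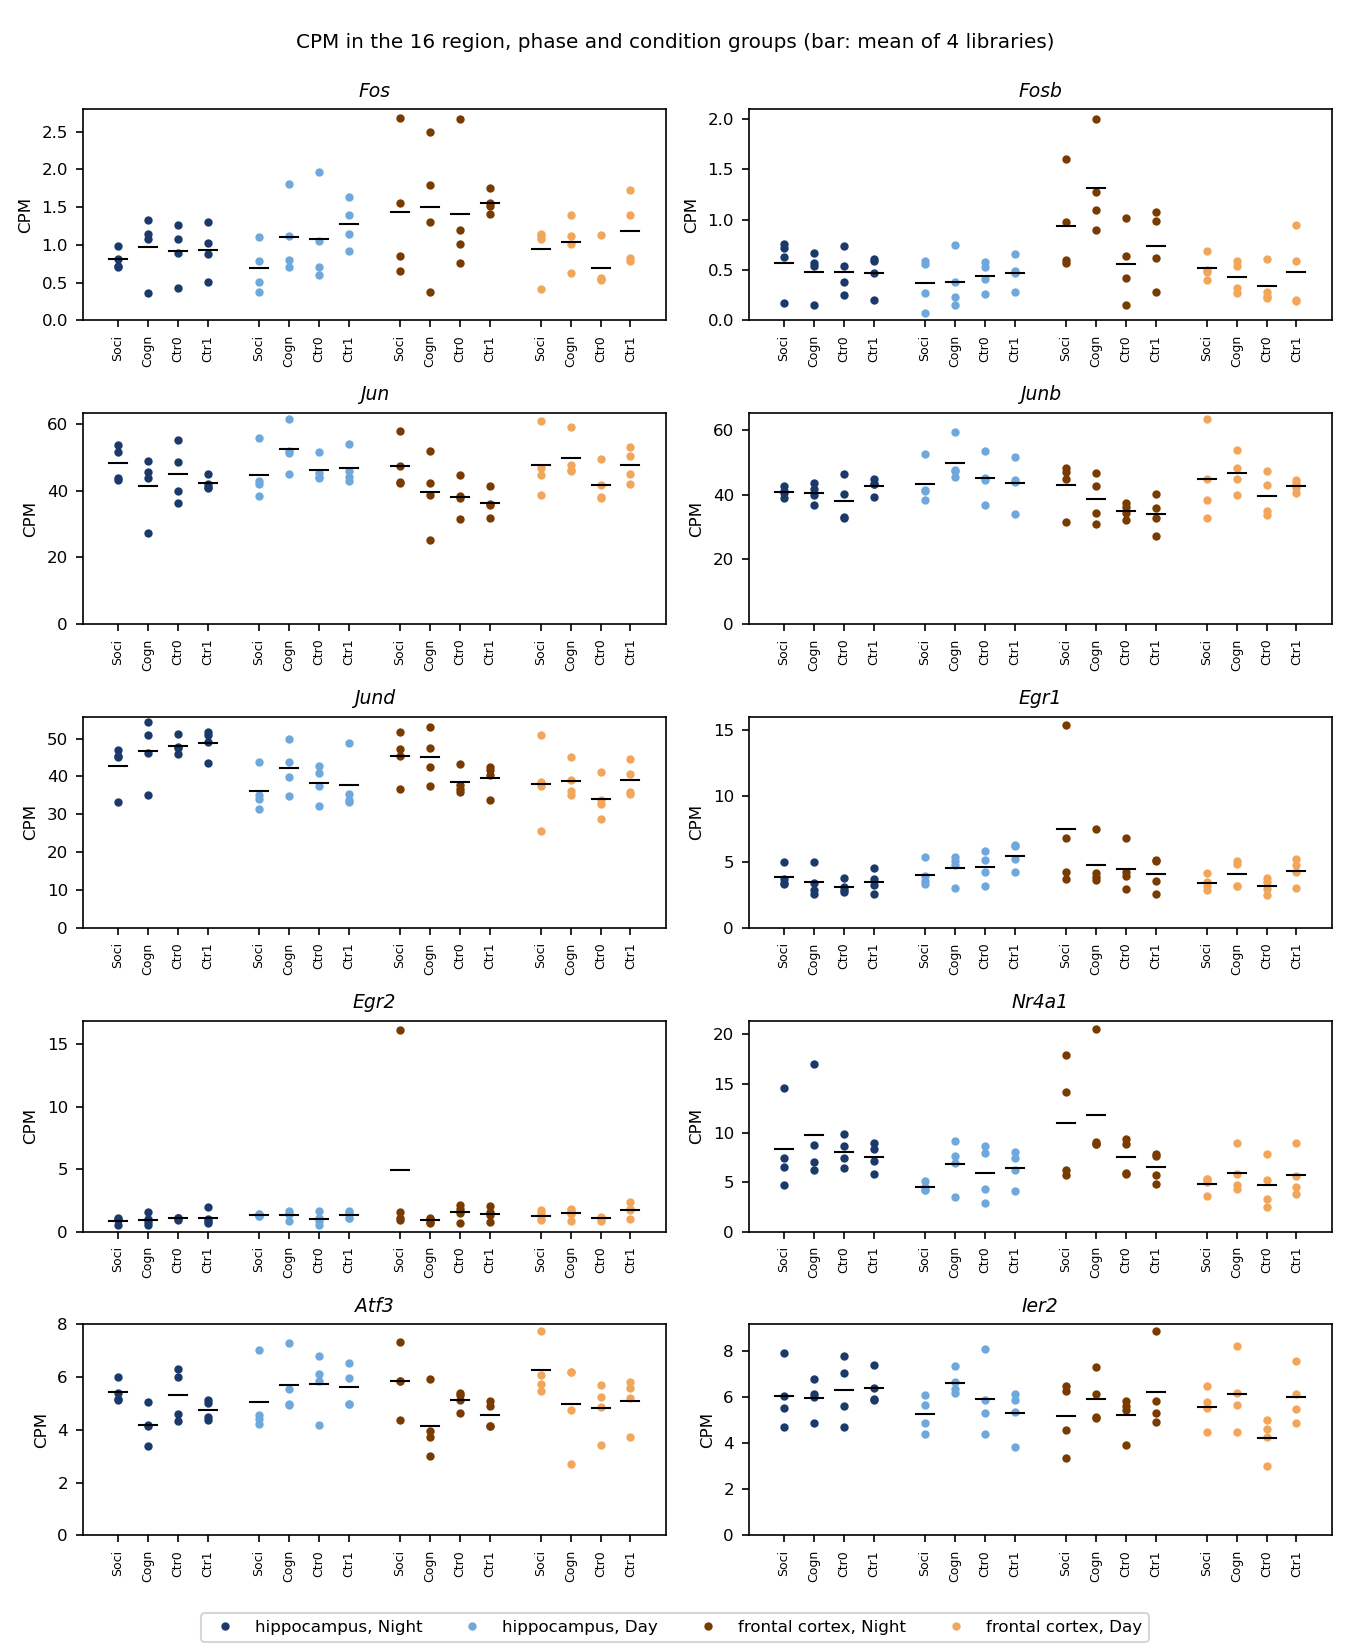
Level of each of the 10 genes in CPM in the 16 groups of region, phase and condition, with 1 point per library, 4 per group, and the group mean. Neighbouring groups overlap for every gene, and the single library of cortical Night Soci at 16.1 CPM stands apart for Egr2.

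The day libraries of a region were set against its night libraries, over all conditions, with edgeR's quasi-likelihood test, and p-values were adjusted over all genes tested (Benjamini-Hochberg). A log2 fold change here is day relative to night. The comparison moved a large part of the transcriptome: 42.2% of 15527 genes passed an adjusted p of 0.05 in hippocampus and 41.8% of 14975 in frontal cortex. Fosb did not reach the count filter in either region and was compared by a permutation test instead.

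In hippocampus 4 of the 9 tested immediate early genes changed, beside the 42.2% of all genes. Junb and Egr1 rose by day, as 23.4% of all genes did, and Jund and Nr4a1 fell, as 18.8% did. In frontal cortex 3 of 9 changed, Fos, Egr1 and Nr4a1, and all 3 fell by day, beside 41.8% of all genes called, 20.6% higher and 21.3% lower. The median log2 change over the 9 genes was 0.20 in hippocampus and -0.17 in cortex, beside 0.02 and -0.02 over all genes tested. The cortical median counts Egr2 as lower by day, a sign that rested on cortical Night Soci replicate 3. No median without that library is given. All these changes were under 1 on the log2 scale, and the day and night ranges of each gene overlapped in both regions.

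**Figure D3:**
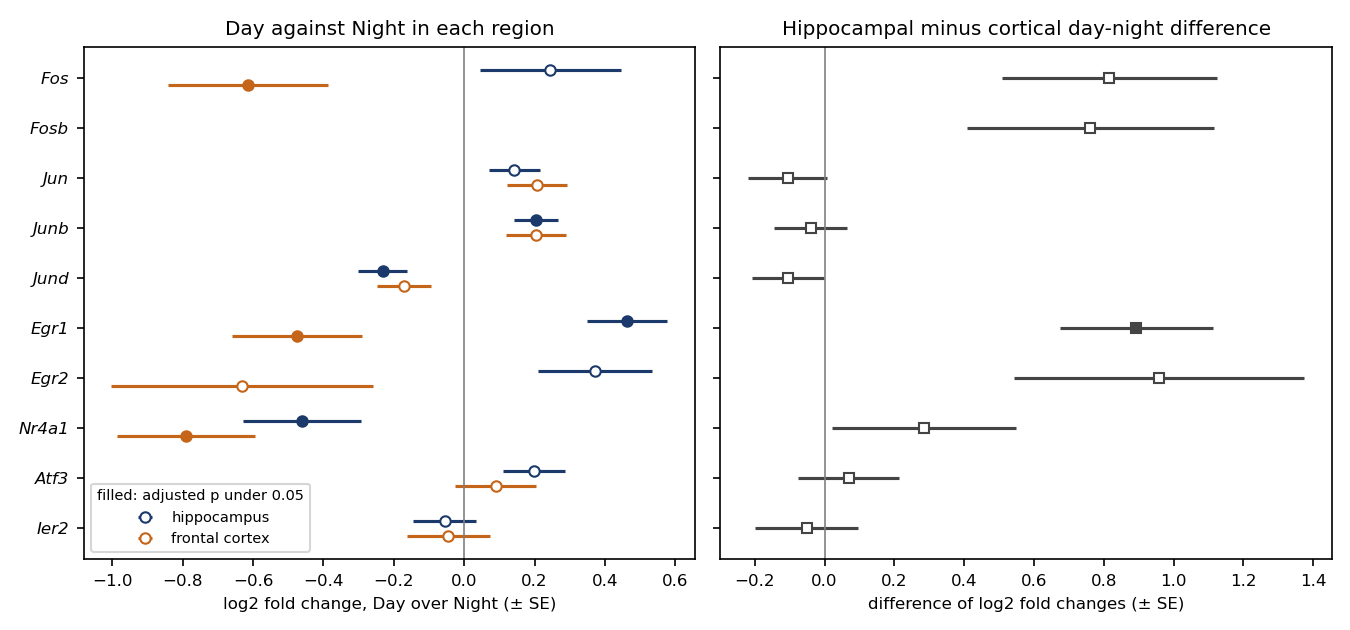
Left, log2 fold change of day relative to night in hippocampus and frontal cortex with bars of 1 SE (edgeR, 16 against 16 libraries; Fosb was under the filter and has no point), and right, the hippocampal minus the cortical change from the fit of all 64 libraries; filled points have an adjusted p under 0.05. Nr4a1 lies below 0 in both regions, and Egr1 lies at 0.46 in hippocampus and at -0.47 in frontal cortex.

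Among the Jun genes, Junb and Jund moved in opposite directions in hippocampus. Junb, a Jun protein known to restrain Jun, ranged there from 32.7 to 46.3 CPM at night, with a median of 40.9, and from 34.0 to 59.6 by day, with a median of 44.9 (n = 16 each). The day libraries reached higher, but most of the values lay in the shared range. The log2 change of Junb was 0.20 ± 0.06 (SE; edgeR adjusted p = 0.00758), and its call was lost without replicate number 2 (0.11, adjusted p = 0.235), number 3 (0.13, adjusted p = 0.133) or number 4 (0.18, adjusted p = 0.0679) and with scaling by library totals alone (0.03, adjusted p = 0.843).

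Jund, the Jun gene best known for steady expression in resting cells, ranged in hippocampus from 33.4 to 54.3 CPM at night, with a median of 47.2, and from 31.3 to 49.9 by day, with a median of 36.4. The night libraries were mostly the higher ones, and the groups overlapped. Jund fell by 0.23 on the log2 scale (SE 0.07; edgeR adjusted p = 0.00679), and without replicate number 1 the change was -0.20 with an adjusted p of 0.0793. Jun itself did not pass the test in hippocampus, where its median was 43.9 CPM at night and 45.1 by day and its log2 change 0.14 ± 0.07 (adjusted p = 0.111).

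In cortex none of the 3 Jun genes passed, although each lay near the threshold. The log2 change was 0.21 ± 0.09 for Jun (edgeR adjusted p = 0.0503), 0.20 ± 0.09 for Junb (adjusted p = 0.0541) and -0.17 ± 0.08 for Jund (adjusted p = 0.073). These 3 signs were the same as in hippocampus. Whether they passed depended on tool and scaling: Jun and Junb each passed in 7 of 17 alternative fits, among them DESeq2 (0.22, adjusted p = 0.0349 for Jun, and 0.21, adjusted p = 0.0362 for Junb), and Jund in 4 of 17, among them library totals alone (-0.25, adjusted p = 0.0162). Without the library cortical Night Soci replicate 3, the changes of Jun and Junb passed, at 0.23 (adjusted p = 0.0364) for Jun and 0.23 (adjusted p = 0.0274) for Junb. Without cortical Night Cogn replicate 1, Junb alone of the 3 passed, at 0.22 (adjusted p = 0.0481).

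Fos, the founding partner of Jun in AP-1, passed in cortex and not in hippocampus, and the test of the difference between the regions, given below, did not pass. In cortex its values ran from 0.378 to 2.68 CPM at night, with a median of 1.46, and from 0.414 to 1.73 by day, with a median of 1.04 (n = 16 each). The highest values were night libraries, while the lowest occurred in both phases. The log2 change of Fos was -0.61 ± 0.23 (edgeR adjusted p = 0.0296). It was -0.55 (adjusted p = 0.0531) without cortical Night Cogn replicate 1, -0.35 (adjusted p = 0.326) without replicate number 1 and -0.67 (adjusted p = 0.073) without replicate number 3. In hippocampus the median of Fos was 0.938 CPM at night and 0.986 by day, and its log2 change of 0.24 ± 0.20 did not pass (edgeR adjusted p = 0.341).

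Fosb, which encodes a second Fos partner, was likewise lower by day in cortex. Its cortical values ran from 0.156 to 2.00 CPM at night, with a median of 0.938, and from 0.196 to 0.944 by day, with a median of 0.437. Nearly the whole day range lay inside the night range. The mean log2 CPM of Fosb differed by -0.78 between day and night (2-sided permutation test, p = 0.0029, adjusted p over both regions 0.0058). This adjustment covered 2 tests and not all genes, and the permutation test was not repeated with a library left out. Of the cortical libraries, 5 were at or under 3 counts, and the highest value lay in Night Cogn. In hippocampus the difference was -0.22 and did not pass (2-sided permutation test, p = 0.315), with medians of 0.553 CPM at night and 0.437 by day.

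With all libraries and no covariates, Egr1 went opposite ways in the 2 regions. In hippocampus it ran from 2.54 to 5.03 CPM at night, with a median of 3.34, and from 3.03 to 6.28 by day, with a median of 4.91. The day libraries were mostly higher, with overlap between 3.03 and 5.03. The log2 change of Egr1 was 0.46 ± 0.11 (edgeR adjusted p = 0.00128). The call was lost without replicate number 2 (0.33, adjusted p = 0.0776) or number 4 (0.37, adjusted p = 0.0528), and with library totals alone (0.28, adjusted p = 0.0887).

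In cortex Egr1 ran from 2.60 to 15.4 CPM at night, with a median of 4.21, and from 2.47 to 5.19 by day, with a median of 3.47. Its log2 change was -0.47 ± 0.19 (edgeR adjusted p = 0.0379). The 15.4 CPM belonged to cortical Night Soci replicate 3, without which the change was -0.28 (adjusted p = 0.0965), and without cortical Night Cogn replicate 1 it was -0.43 (adjusted p = 0.0641). The cortical fall of Egr1 was also lost without replicate number 1 (-0.39, adjusted p = 0.196), number 2 (-0.50, adjusted p = 0.117) or number 3 (-0.30, adjusted p = 0.141), and it was kept in 6 of 17 alternative fits.

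Egr2, which myelinating glia and myeloid cells use besides neurons, did not pass in either region. In hippocampus its median was 0.991 CPM at night and 1.33 by day, with a log2 change of 0.37 ± 0.16 (edgeR adjusted p = 0.0641). In cortex the medians were 1.22 CPM at night and 1.30 by day, while the fitted change was -0.63 ± 0.37 (adjusted p = 0.173). The sign of that value came from 1 library: without cortical Night Soci replicate 3 the change of Egr2 was 0.11 (adjusted p = 0.646).

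Nr4a1 passed the test in both regions, and was lower by day in each. In hippocampus it ran from 4.73 to 17.0 CPM at night, with a median of 7.45, and from 2.90 to 9.21 by day, with a median of 5.69 (n = 16 each). In cortex it ran from 4.79 to 20.5 CPM at night, with a median of 8.34, and from 2.48 to 8.98 by day, with a median of 5.13. Values above 9.21 CPM occurred at night alone, and below that the phases overlapped. The log2 change of Nr4a1 was -0.46 ± 0.17 in hippocampus (edgeR adjusted p = 0.0267) and -0.79 ± 0.20 in cortex (adjusted p = 0.00167).

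The hippocampal difference of Nr4a1 rested on replicate number 1. At number 1 the median was 12.3 CPM at night and 3.80 by day in hippocampus, whereas at numbers 2 to 4 the medians were 6.33 to 7.93 at night and 6.28 to 7.57 by day. Without number 1 the hippocampal change was -0.12 (edgeR adjusted p = 0.553) and the cortical change of Nr4a1 was -0.50 (adjusted p = 0.0411). The highest night libraries were replicate 1 of Soci and of Cogn in both regions, at 14.6 and 17.0 CPM in hippocampus and at 17.9 and 20.5 CPM in cortex. The labels give no batch, and what replicate number 1 stands for was not tested. Without cortical Night Cogn replicate 1 the cortical change was -0.67 (adjusted p = 0.00367), and without cortical Night Soci replicate 3 it was -0.74 (adjusted p = 0.00317).

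Atf3 and Ier2 did not pass the test in either region. The log2 change of Atf3 was 0.20 ± 0.09 in hippocampus (edgeR adjusted p = 0.0686) and 0.09 ± 0.12 in cortex (adjusted p = 0.559), with medians of 5.02 against 5.27 CPM and 4.99 against 5.54 CPM, night before day. Ier2 changed by -0.06 ± 0.09 in hippocampus (adjusted p = 0.645) and -0.05 ± 0.12 in cortex (adjusted p = 0.786).

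Markers of other cells moved with phase too, as did 42.2% of all genes in hippocampus and 41.8% in cortex. By day, 3 of 10 neuron markers were lower in hippocampus and 8 of 10 in cortex, where their summed level fell from a median of 1766 CPM (884.5 to 3158) to 1156 CPM (700.3 to 3143). In hippocampus the summed neuron markers had medians of 2139 CPM at night (1177 to 3791) and 1928 by day (682.5 to 4318). Astrocyte markers were lower by day in 7 of 8 genes in both regions, oligodendrocyte markers in 7 of 8 in hippocampus and 5 of 8 in cortex, endothelial markers in 6 of 7 and 1 of 7, and choroid plexus markers in 7 of 7 in hippocampus. Microglia markers were higher in 8 of 10 in hippocampus and 5 of 10 in cortex, and border macrophage markers in 7 of 7 and 6 of 7. With the 7 scores of non-microglial markers as covariates none of the 7 day-night calls was kept, and in cortex Nr4a1 was at 0.30 (adjusted p = 0.523), Egr1 at 0.47 (adjusted p = 0.388) and Fos at -0.40 (adjusted p = 0.591). In that same fit Jun (0.53, adjusted p = 0.0494) and Junb (0.58, adjusted p = 0.0195) passed in cortex. The same covariates left 41 of all genes called in hippocampus and 1932 in cortex.

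Regions were compared in 1 fit of all 64 libraries, hippocampus relative to frontal cortex and averaged over day and night. 1 of the 10 genes passed, Egr2, where 16.6% of 16069 genes did, 10.4% higher and 6.17% lower in hippocampus. The log2 difference of Egr2 was -0.61 ± 0.21 (edgeR adjusted p = 0.0326), lower in hippocampus. Without cortical Night Soci replicate 3 it was -0.26 (adjusted p = 0.133), so the call rested on that library, and it was kept in 7 of 16 alternative fits. Fosb was at -0.40 ± 0.18 (adjusted p = 0.118) and Fos at -0.29 ± 0.15 (adjusted p = 0.202), while the other 7 genes lay between -0.13 and 0.11.

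Whether the day-night change itself differed between regions was tested in the same fit. Egr1 passed, as 1 of 10 beside 1.19% of all genes, of which 0.33% had the higher change in hippocampus and 0.859% the lower. Its day-night change was higher in hippocampus than in cortex by 0.89 ± 0.22 on the log2 scale (edgeR adjusted p = 0.0201). Leaving out cortical Night Soci replicate 3 gave 0.72 (adjusted p = 0.037) and leaving out cortical Night Cogn replicate 1 gave 0.85 (adjusted p = 0.0315). Without replicate number 1 the difference for Egr1 was 0.97 (adjusted p = 0.0647), without number 2 it was 0.82 (adjusted p = 0.432) and without number 4 it was 1.08 (adjusted p = 0.0677). The call was also lost with replicate 4 alone and with marker scores as covariates. It was kept in 12 of 17 alternative fits, over which the difference ran from 0.34 to 1.08. Egr2 (0.96 ± 0.42, adjusted p = 0.369), Fos (0.82 ± 0.31, adjusted p = 0.24) and Fosb (0.76 ± 0.35, adjusted p = 0.435) had differences of like size that did not pass, and the 3 Jun genes were at -0.11 to -0.04.

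With TMM scaling and all libraries, no comparison of conditions called any of these genes. Over the 4 conditions none of the 10 passed in hippocampus or cortex by edgeR, with 0.0% of genes called in both regions (0 of 16826 and 0 of 16238, with 1093 and 1095 at an unadjusted p under 0.05). DESeq2 called 6 genes in hippocampus and 1 in cortex, none of them of this set. The lowest unadjusted p was 0.237 for Fos in hippocampus and 0.0667 for Atf3 in cortex (adjusted p = 0.719).

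In the 6 pairwise contrasts the log2 differences of the 10 genes ran from -0.55 to 0.22 in hippocampus and from -0.46 to 1.09 in cortex, and none passed. In Soci against Ctr1 in hippocampus Nr4a1 was at -0.22 (edgeR adjusted p = 0.696), and without replicate number 1 at -0.54, past the threshold (adjusted p = 0.0364). With library totals alone, Jun (0.45, adjusted p = 0.00736), Junb (0.36, adjusted p = 0.00736), Jund (0.26, adjusted p = 0.0215) and Atf3 (0.39, adjusted p = 0.0301) passed in the same contrast, as did 9711 genes over all pairs, and Jun and Junb passed over the 4 conditions (adjusted p = 0.0441 for both). Among all genes with TMM scaling, 2 passed in Soci against Ctr1 (0.0119%) and 1 in Cogn against Ctr1 (0.00594%) in hippocampus, and 0.0% in the other contrasts. None of the 10 had an unadjusted p under 0.05 in hippocampus, and between 0 and 3 had in the cortical contrasts. The test for day-night changes that depended on the condition gave 0.0% of genes in hippocampus (695 at an unadjusted p under 0.05, 12 by DESeq2) and 0.00616% in cortex, and none of the 10 by either tool. The lowest unadjusted p there was 0.196 for Jun in hippocampus and 0.0318 for Egr2 in cortex (adjusted p = 1.00).

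**Figure D4:**
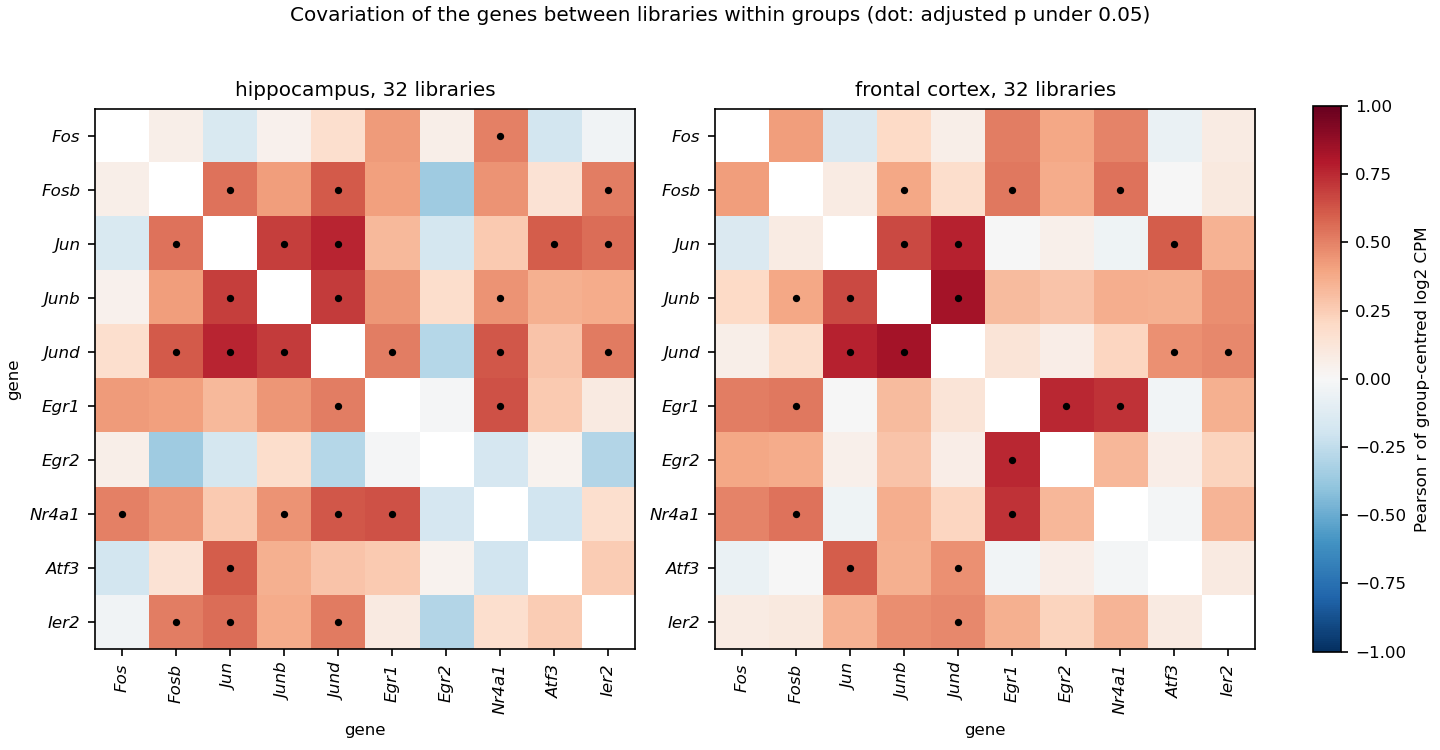
Pearson r between each pair of the 10 genes over the 32 libraries of hippocampus and of frontal cortex, after the mean log2 CPM of the group was subtracted. The block of Jun, Junb and Jund has values from 0.657 to 0.835 over both regions, and a dot marks a permutation adjusted p under 0.05.

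Covariation between libraries of the same group was measured on log2 CPM after subtraction of the group mean, over the 32 libraries of a region, and tested by permuting values within groups. The family held 90 relations, 45 in each region, and was adjusted together. In hippocampus 14 pairs passed and in cortex 11, all of them positive. In each region 15 of the 45 pairs (33.3%) were at or above the smallest r that passed, which counts pairs that did not pass. Of all gene pairs, 13.2% in hippocampus and 16.6% in cortex were at or above it. Past it in size, with either sign, were 24.6% and 31.1% of all gene pairs. No negative r of the 45 pairs was of that size, the lowest being -0.355 in hippocampus and -0.141 in cortex. In cortex the share of the 45 pairs was thus close to that of all gene pairs. Without 1 replicate number, 4 to 9 pairs passed in hippocampus and 3 to 9 in cortex, and without cortical Night Cogn replicate 1 7 passed in cortex. The median r was 0.282 over the 45 pairs in hippocampus and 0.330 in cortex, beside 0.00306 and -0.00896 over all pairs of 11092 genes of at least 2 in average log2 CPM. Correlated genes were frequent in these libraries, and 24.4% and 20.6% of all gene pairs had an r at or above those medians.

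The Jun genes gave the 3 highest values in hippocampus and the 2 highest in cortex. In hippocampus Jun and Jund had r = 0.763 (rho = 0.739, permutation adjusted p = 0.000225), Junb and Jund 0.699 (rho = 0.659, adjusted p = 0.000225) and Jun and Junb 0.690 (rho = 0.667, adjusted p = 0.00144). In cortex r was 0.835 for Junb and Jund (rho = 0.789, permutation adjusted p = 0.000225), 0.767 for Jun and Jund (rho = 0.714, adjusted p = 0.000225) and 0.657 for Jun and Junb (rho = 0.665, adjusted p = 0.00913). Without the 2 libraries farthest from the median these 6 values were 0.676 to 0.774. The 3 hippocampal pairs passed in all 5 alternatives and the cortical Jun and Jund and Junb and Jund pairs in all 7, while the cortical Jun and Junb pair passed in 5 of 7.

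Egr1 and Nr4a1 varied together in both regions, with r = 0.634 in hippocampus (rho = 0.611, permutation adjusted p = 0.0157, 0.513 without the 2 farthest libraries) and 0.721 in cortex (rho = 0.766, adjusted p = 0.0015, 0.703 without them). The cortical value held in 6 of 7 alternatives and the hippocampal one in 1 of 5. Egr1 and Egr2 were correlated in cortex, with r = 0.754 (rho = 0.604, permutation adjusted p = 0.0107, 0.638 without the 2 farthest), and had r = -0.01 in hippocampus (adjusted p = 0.979). Without cortical Night Soci replicate 3 the cortical r was 0.556 (permutation adjusted p = 0.0353). It did not pass without replicate number 2 (0.720, permutation adjusted p = 0.144) or number 3 (0.619, adjusted p = 0.0915). Jun and Atf3 were correlated in both regions, with r = 0.603 (permutation adjusted p = 0.0201) and 0.605 (adjusted p = 0.0157), which held in 2 of 5 and 4 of 7 alternatives.

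Fos, in contrast to the Jun genes, had few relations. Its median r with the other 9 genes was 0.0575 in hippocampus and 0.203 in cortex, and 1 of its 18 relations passed, that with Nr4a1 in hippocampus (r = 0.504, permutation adjusted p = 0.049), which held in 1 of 5 alternatives, with r down to 0.290. Fos and Fosb had r = 0.42 in cortex (permutation adjusted p = 0.0777) and 0.059 in hippocampus (adjusted p = 0.896). Counting error adds to the spread of both, as their counts were the lowest of the set along with those of Egr2.

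**Figure D5:**
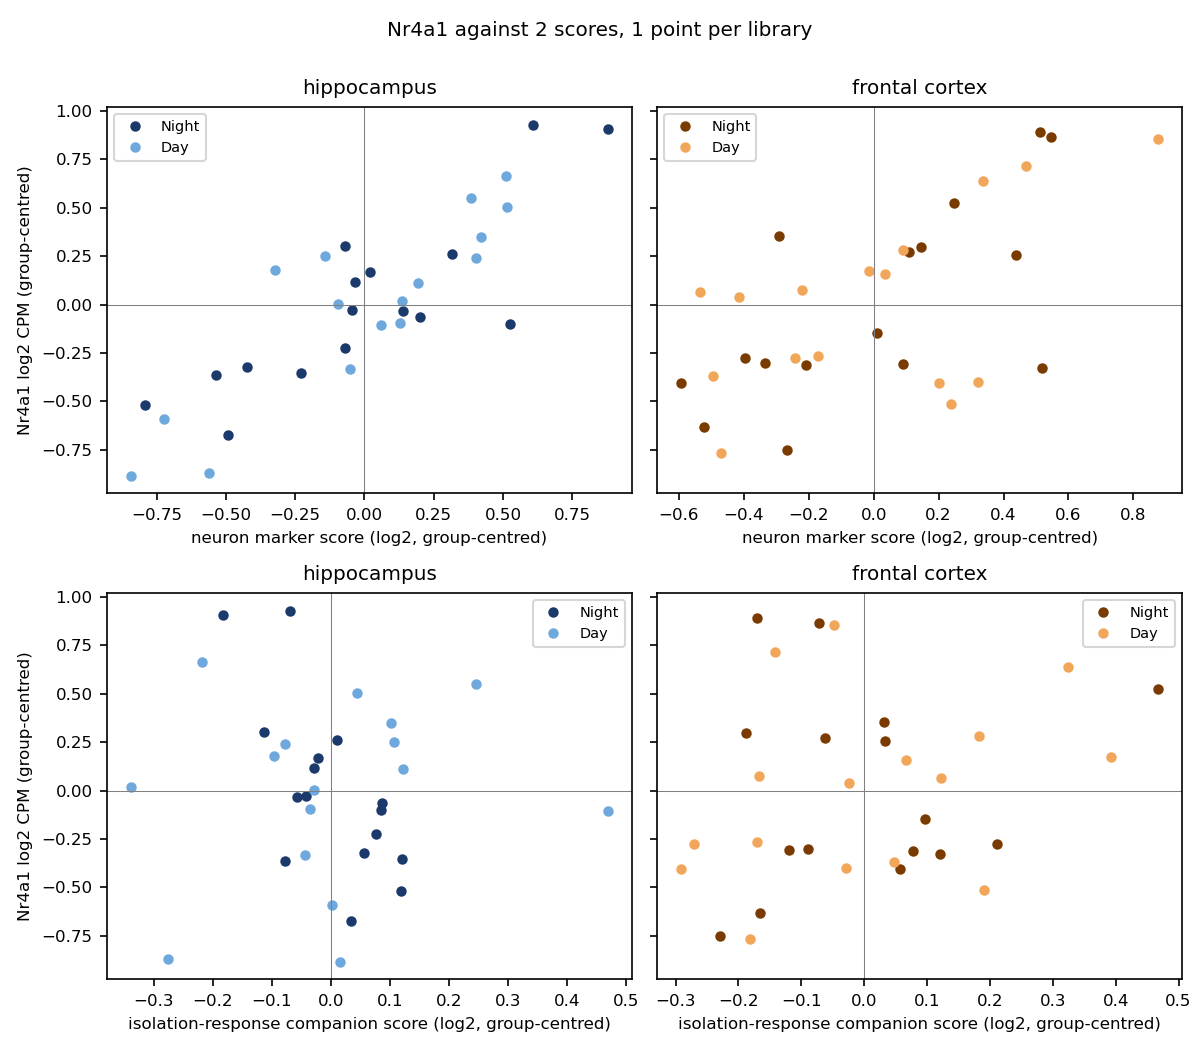
Log2 CPM of Nr4a1 minus its group mean in each library, for hippocampus and frontal cortex, against scores centred in the same way. These are the score of the neuron markers and the score of those of the 15 dissociation companions that passed the count filter. Nr4a1 follows the neuron score with r = 0.855 in hippocampus and 0.629 in cortex, and has r = -0.0829 and 0.224 with the other score. In hippocampus these are the highest r of the 10 genes with the neuron score and the lowest with the other score.

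The same group-centred values were set against 11 other measures of each library, 220 relations adjusted together. Companions of the 10 genes in the response to tissue dissociation, a list of 15 mostly heat shock, chemokine and cytokine genes that holds none of the 10, gave no relation past the threshold in 20. Their r with the 10 genes ran from -0.0829 to 0.402 in hippocampus, with a median of 0.257 and a lowest permutation adjusted p of 0.321, and from 0.0913 to 0.537 in cortex, with a median of 0.356 and a lowest adjusted p of 0.205. The log2 total count gave none in 20 either, with r from -0.04 to 0.461 in hippocampus and from -0.104 to 0.236 in cortex.

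The neuron score gave the most relations, 4 in hippocampus and 1 in cortex. Nr4a1 had r = 0.855 with it in hippocampus (rho = 0.766, permutation adjusted p = 0.0044, 0.806 without the 2 farthest libraries) and 0.629 in cortex (rho = 0.540, adjusted p = 0.0478, 0.560 without them). Jund (0.751, permutation adjusted p = 0.00587), Junb (0.631, adjusted p = 0.0163) and Fosb (0.617, adjusted p = 0.0163) followed it in hippocampus. Many other genes did as well: the r of Nr4a1 was above that of 93.8% of genes in hippocampus and 87.6% in cortex. In hippocampus the r of Jund was above that of 89.6% of genes and the r of Junb above that of 86.2%. Such a share was not counted for Fosb, for Gm26917 or for the other cell type markers. The share of all genes that would pass was not counted for any measure. Atf3 had r = 0.00859 with the neuron score in hippocampus and 0.0588 in cortex, and Jun had 0.489 and 0.0627. The share of counts in the non-coding gene Gm26917 was related to Nr4a1 in hippocampus (r = 0.737, permutation adjusted p = 0.00587) and to Jund (r = 0.616, adjusted p = 0.0478). Oligodendrocyte markers followed Fosb, Junb and Jund in hippocampus, astrocyte markers Fosb and Jund, endothelial markers Ier2, and in cortex microglia markers followed Atf3 (r = 0.554, permutation adjusted p = 0.0367). The part of these cell types in the levels of the genes was not tested beyond these relations.

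Libraries of the 2 regions that share phase, condition and number were compared in 32 pairs. No gene of the 10 passed, with r from 0.039 to 0.533 and the highest for Jun (permutation p = 0.0393, adjusted p = 0.393, and 0.258 without the 2 farthest pairs). The labels do not say whether such libraries came from 1 animal.

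The genes most like each member were sought among 11085 others by the r of group-centred log2 CPM over all 64 libraries. Arc, a neuronal immediate early gene that acts at synapses, was most like Nr4a1 with r = 0.904. Jun was most like Dusp7, a phosphatase of the ERK kinases, with 0.884, Irf2bpl with 0.883 and Ccnd1, which encodes cyclin D1, with 0.843. For Junb these were the complement gene C1qc with 0.824 and Ier5, itself an immediate early gene, with 0.823, and for Jund the histone gene Hist1h4c with 0.843. Egr4, a relative of Egr1, was among the 3 most like Egr1 with 0.622 after Lonrf1 with 0.629. Ccnd1 was most like Atf3 with 0.698 and Tagln2 most like Ier2 with 0.729. For the scarce genes the highest values were lower, 0.623 for Fos with Cfp, 0.542 for Fosb with Lrfn1 and 0.552 for Egr2 with Rcan1. The mean of the 9 tested members was most like Ier5, with 0.796. These are descriptions without a test.

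Other genes of the pathway are given by list. Among all genes tested, 23.4% rose and 18.8% fell by day in hippocampus, and 20.6% rose and 21.3% fell in cortex. Of 15 tested further immediate early transcription factors, 4 rose by day and 1 fell in hippocampus, and 3 rose and 2 fell in cortex. Klf6, a Kruppel-like factor, rose by 0.38 ± 0.06 in hippocampus (edgeR adjusted p = 1.93e-06) and 0.33 ± 0.06 in cortex (adjusted p = 7.19e-05), and Fosl2, another Fos relative, by 0.19 ± 0.05 (adjusted p = 0.00239) and 0.35 ± 0.05 (adjusted p = 5.12e-06). Maff rose in hippocampus by 0.68 ± 0.18 (adjusted p = 0.00311) and Myc in cortex by 0.34 ± 0.10 (adjusted p = 0.00766). The list median was 0.09 in hippocampus and 0.11 in cortex.

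Of the immediate early genes for feedback and signalling, 8 of 19 rose and 2 fell in hippocampus, and 6 of 18 rose and 1 fell in cortex. Of all genes, 23.4% rose and 18.8% fell in hippocampus, and 20.6% rose and 21.3% fell in cortex. Dusp6, which inactivates ERK kinases, rose by 0.63 ± 0.07 (edgeR adjusted p = 1.09e-08) in hippocampus and 0.68 ± 0.10 (adjusted p = 1.96e-06) in cortex. Zfp36, which encodes a protein that destabilises cytokine and immediate early transcripts, rose by 0.37 ± 0.05 (adjusted p = 1.93e-06) and 0.34 ± 0.05 (adjusted p = 4.83e-06). Trib1 rose in hippocampus by 0.39 ± 0.07 (adjusted p = 4.83e-05) and Rhob in cortex by 0.48 ± 0.08 (adjusted p = 1.95e-05).

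Upstream factors of the serum and cyclic AMP response rose in 6 and fell in 3 of 17 genes in both regions. The shares over all genes were 23.4% higher and 18.8% lower in hippocampus, and 20.6% higher and 21.3% lower in cortex. Creb1, which binds the cyclic AMP response element, rose by 0.47 ± 0.05 in hippocampus (edgeR adjusted p = 1.18e-08) and 0.36 ± 0.04 in cortex (adjusted p = 2.87e-08), whereas its coactivator Crtc1 fell by 0.40 in cortex (SE 0.07, adjusted p = 8.14e-05). Mapk14, the p38 alpha kinase, rose by 0.16 in both regions, with adjusted p-values of 0.000389 and 0.000772, and Atf1, a relative of Creb1, rose by 0.21 ± 0.05 in hippocampus (adjusted p = 0.000488). Partners of AP-1, ATF and EGR proteins rose in 7 of 14 in both regions and none fell, beside the same shares of all genes. Mafg rose by 0.30 ± 0.05 in hippocampus (edgeR adjusted p = 1.62e-05) and 0.24 ± 0.05 in cortex (adjusted p = 0.000107), Maf in hippocampus by 0.35 ± 0.05 (adjusted p = 1.85e-06) and Cebpb in cortex by 0.52 ± 0.10 (adjusted p = 0.000144).

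Of the dissociation companions, 10 of 14 tested rose by day in hippocampus and none fell, and in cortex 8 rose and 1 fell, with list medians of 0.66 in both regions. Of all genes, 23.4% rose and 18.8% fell in hippocampus, and 20.6% rose and 21.3% fell in cortex. The chaperone gene Hspa8 rose by 1.36 ± 0.08 in hippocampus (edgeR adjusted p = 7.21e-14) and 1.5 ± 0.10 in cortex (adjusted p = 2.22e-12), and Dnaja1, which encodes a partner of that chaperone, by 0.88 ± 0.07 (adjusted p = 4.58e-11) and 0.86 ± 0.08 (adjusted p = 6.9e-10). Dnajb1 rose in hippocampus by 0.72 ± 0.06 (adjusted p = 5.34e-10) and Hsp90aa1 in cortex by 1.04 ± 0.09 (adjusted p = 1.52e-10). The summed CPM of the 15 genes ran from 306 to 426 at night and from 562 to 984 by day in hippocampus, and from 291 to 455 and from 565 to 1123 in cortex. These night and day ranges did not overlap. Those of the summed CPM of the 10 genes did, at 119.6 to 179 and 128 to 199 in hippocampus and at 113 to 201 and 119 to 200.4 in cortex. The Jun genes made up 83.4% of this sum on average, and in hippocampus Junb rose by day while Jund fell. The share of all genes whose night and day ranges do not overlap was not counted. The companions were chosen with earlier results of these data known.

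Between regions, 3 of 15 further immediate early transcription factors were higher in hippocampus, among them Nr4a2, a relative of Nr4a1, by 0.69 ± 0.13 (edgeR adjusted p = 2.87e-05), Klf2 by 0.35 ± 0.12 (adjusted p = 0.0388) and Maff by 0.43 ± 0.15 (adjusted p = 0.0398). Of all genes, 10.4% were higher and 6.17% lower in hippocampus. 1 of 20 feedback genes, Ppp1r15a, was higher by 0.17 ± 0.05 (adjusted p = 0.0178), and 1 of 17 upstream factors, Mrtfa, by 0.14 ± 0.04 (adjusted p = 0.00488). Of 14 partners, Cebpb (0.31 ± 0.07, adjusted p = 0.00179) and Nab2 (0.19 ± 0.06, adjusted p = 0.0254) were higher. Of 14 companions, Hsp90aa1 (0.19 ± 0.06, adjusted p = 0.0264) and Hspa1a (0.41 ± 0.14, adjusted p = 0.0293) were higher and Il1a was lower (-0.31 ± 0.06, adjusted p = 0.000199).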

How the data were processed

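Per the labels and methods, the authors removed ribosomal RNA, aligned single-end reads to GRCm38.p5 with STAR 2.7.3a and assigned them to genes with featureCounts of Subread 2.0.0. The deposited values are raw read counts per gene, not normalized. Strand setting and multimapping are not given in the sources used here. Of 49671 genes, 49326 were matched to GENCODE M21 and 345 were not. Groups came from the labels, 4 libraries each. Among 96 replicate pairs none was identical and chi-square per degree of freedom was at least 8.26, and every library was 1 replicate.

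Counts were tested with edgeR 4.0.16 in R 4.3.3 (TMM, filterByExpr, quasi-likelihood F test, Benjamini-Hochberg over all genes tested, threshold 0.05). The SE was taken as the log2 change over the root of its F statistic. Log2 CPM used a prior count of 2. Permutation tests drew 100000 resamples, with 1e-05 as the smallest p. A list's score in a library is the mean log2 CPM of its genes after centring. Genes under the count filter were left out of the scores correlated with the members, but not out of the marker covariates. Alternatives were other scalings and filters, DESeq2 1.42.0, a replicate block, left-out replicates and libraries, and depth, condition or marker covariates; the 2 single-library exclusions and the covariation exclusions of numbers 1 to 3 were added after the data were seen. Fits were tested on simulated counts. Whether replicate numbers pair samples was checked, and the check cannot decide it. The median r of same-number pairs was 0.016 in hippocampus and 0.030 in cortex, beside -0.012 and -0.033 for pairs of other numbers. Of 112 same-number pairs, 39 in hippocampus and 49 in cortex correlated above 0.1, which was not counted for other numbers. Members, lists and motifs were chosen with earlier results of these data known. The rule for naming other genes took up to 3 of lowest p per list in the day-night and region comparisons, the 3 most like each member (some not named) and the 5 most like their mean (not all named); 1 gene of the lists is not reported here. Floors of 3 counts cover counting error only.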

Additional observations from a re-analysis of the deposited data

Results flagged for a closer look

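12 of 160 groups of 4 libraries held a value far from the other 3 by Dixon's criterion, where chance gives about 8. Frontal cortex Night Cogn replicate 1 was high in Nr4a1, at 20.5 CPM beside 8.83 to 9.06 CPM in the other 3, and in Egr1, at 7.50 CPM beside 3.66 to 4.19. Frontal cortex Night Soci replicate 3 was high in Egr2, at 16.1 CPM beside 0.924 to 1.55. Other high values were Fos at 1.12 CPM in cortical Day Ctr0 replicate 3, Fosb at 0.608 CPM in cortical Day Ctr0 replicate 2 and Jun at 59.1 CPM in cortical Day Cogn replicate 1. In hippocampus Junb was high at 59.6 CPM in Day Cogn replicate 2, Jund at 48.9 CPM in Day Ctr1 replicate 3 and Atf3 at 7.04 CPM in Day Soci replicate 2. Low values were Fos at 0.414 CPM in cortical Day Soci replicate 3, Jund at 33.4 CPM in hippocampal Night Soci replicate 3 and Egr2 at 0.928 CPM in hippocampal Night Ctr0 replicate 1. The Fos and Fosb values rested on 6 to 15 counts. The day-night change of Egr1 differed between the regions, by 0.89 on the log2 scale (edgeR adjusted p = 0.0201).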

How the results depend on the processing

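Counts of genes called moved by more than 1.5 times as follows. With library totals alone, day against night called 4288 genes in hippocampus (265 higher, 4023 lower, against 3637 and 2913 with TMM) and 4061 in cortex (656 and 3405, against 3084 and 3183), the conditions in hippocampus 3814, the condition pairs 9711 and the phase-by-condition test in cortex 0. This scaling moved the median log2 change of all genes to -0.14 and -0.09. Without the genes over 1% of counts the day-night splits were 2762 and 3610, and 2677 and 3458. Without each replicate number, day against night called 4319 to 7356 genes in hippocampus and 3941 to 6403 in cortex, the conditions in hippocampus 0 to 328, the pairs 0 to 1688, the phase-by-condition test in cortex 0, the region 1322 to 3516 and its interaction with phase 15 to 224. Replicate 4 alone gave 118, 0, 0 and 0 for the day-night tests, region and interaction, and marker scores gave 41, 1932, 710 and 665. DESeq2 called 6 and 12 genes for the conditions and phase-by-condition in hippocampus, 1 and 9 in cortex, and 19 for the pairs, where edgeR called 3. The conditions in cortex gave 1 without a count filter and 1 with 1 CPM in 16 libraries, those in hippocampus 2 without the genes over 1% of counts, and phase-by-condition in cortex then 0. The log2 total as a covariate left 1693 genes for the region.

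Pairs of members that passed numbered 9 in hippocampus with library totals, 4 to 9 without a replicate number there and 3 to 9 in cortex, and 7 in cortex without Night Cogn replicate 1.

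With the replicate block the conditions in hippocampus gave 2 genes and phase-by-condition in cortex 0. The numbers mark no shared source in the labels. Between regions, 12 of 32 libraries correlated best with that of their own number in the same group, among 4 numbers. The block ended the calls of Egr1 in cortex (-0.45, edgeR adjusted p = 0.0544) and of Egr2 between regions (-0.54, adjusted p = 0.0519), and Jun (0.21, adjusted p = 0.0498) and Jund (-0.17, adjusted p = 0.0493) passed in cortex.

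Among values past the threshold in at least 1 of the settings compared, signs turned for Junb in hippocampus with marker scores (-0.059), for Egr1 in cortex with replicate 4 alone (0.27) or marker scores (0.47), for Nr4a1 in cortex with marker scores (0.30), and with library totals for Soci against Ctr1 in hippocampus (Junb 0.36, Jund 0.26, Atf3 0.39, then past the threshold) and for the r of Junb and Nr4a1 in hippocampus (-0.141). Differences that passed in neither setting also turned, with marker scores for Jund in cortex (0.23) and Jun and Egr2 in hippocampus (-0.03 and -0.10), and for Jun in hippocampus with replicate 4 alone (-0.07) or library totals (-0.02). The cause of these changes was not tested. Depth limits Fosb, Fos and Egr2 most.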
